A study of Mus musculus with 18 samples.

Results

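Cebpd and Bcl6 are transcription factor genes on mouse chromosome 16 that respond to glucocorticoids in many cells. Their rows, 2 of the 40620 in the count table, were taken by symbol and read per construct and time in osteogenic medium containing dexamethasone, a synthetic glucocorticoid. The pair was chosen by its measured change in counts between times in these same libraries, so every value between times below is a description and carries no test for either gene. Comparisons between constructs did not enter that choice and were tested.

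RNA was sequenced from MC3T3-E1, a mouse preosteoblast line, after introduction of a short hairpin RNA. The groups were shRcor2-18 and shRcor2-20, both labelled as a knockdown of Rcor2, a corepressor of the CoREST family, and shScramble, the control hairpin, whose genotype is labelled WT. Each of the 3 constructs was taken at 0h, 24h and 7d, with 2 samples in each of the 9 groups, and the osteogenic medium contained 10 nM dexamethasone, 50 µg/ml ascorbic acid and 5 mM beta-glycerophosphate. Times are those of the sample titles; the protocols name 14 and 21 days of differentiation and no 7d, so the length of the last time is uncertain. The labels give this medium for every group, 0h included, so they do not show that the 0h cells were free of the hormone. No group had the other components without dexamethasone, so the hormone, the rest of the medium and the time in culture cannot be told apart, and the labels do not say whether a construct was 1 clone or a pool. Whether samples 1 and 2 came from different cultures is not stated, and the p-values then measure the spread between these samples alone, which may be technical.

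Glucocorticoids bind the glucocorticoid receptor, a nuclear receptor that enters the nucleus and acts at DNA response elements to raise some genes and lower others. Cebpd encodes C/EBPδ, a basic leucine zipper factor of the C/EBP family, which is induced early by glucocorticoids and cytokines and is best known for starting the adipocyte programme together with C/EBPβ. Bcl6 encodes a zinc finger repressor with a BTB domain, through which it recruits corepressors, and it is known for germinal centre B cells and for opposing STAT-driven genes at shared DNA sites.

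RefSeq promoter sequences (GRCm38.p6, 250 bases before to 50 after a start site) were available for Bcl6, with 2 entries, both on the minus strand. They are shown because STAT factors are known regulators of Bcl6 and dexamethasone acts through the glucocorticoid receptor. Capitals mark each match, on either strand, to the STAT motif TTCNNNGAA or to the glucocorticoid response element half-site AGAACA, whose other strand reads TGTTCT.
Bcl6 upstream start, chr16:23988803-23989102: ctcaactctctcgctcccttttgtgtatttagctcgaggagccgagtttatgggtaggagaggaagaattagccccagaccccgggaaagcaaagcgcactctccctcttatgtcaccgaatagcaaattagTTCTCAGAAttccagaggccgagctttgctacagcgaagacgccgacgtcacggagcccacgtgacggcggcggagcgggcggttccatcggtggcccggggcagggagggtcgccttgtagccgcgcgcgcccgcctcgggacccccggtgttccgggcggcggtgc
Bcl6 downstream start, chr16:23981234-23981533: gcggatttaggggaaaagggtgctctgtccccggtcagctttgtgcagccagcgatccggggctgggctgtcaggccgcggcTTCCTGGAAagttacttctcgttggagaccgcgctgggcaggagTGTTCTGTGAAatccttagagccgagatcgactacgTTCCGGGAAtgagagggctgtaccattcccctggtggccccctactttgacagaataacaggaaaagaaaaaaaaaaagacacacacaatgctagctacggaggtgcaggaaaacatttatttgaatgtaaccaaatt
The upstream promoter held 1 STAT match, 118 bases before its start site, and no half-site. The downstream promoter held 3 STAT matches, beginning 168, 122 and 88 bases before its start site, and 1 half-site beginning 124 bases before it, which overlaps the middle STAT match. Of the 32817 promoters of the same length, 8.29% had at least 1 STAT match, 0.034% (11 promoters) had at least 3, and 18.97% had at least 1 half-site. Neither Bcl6 promoter held the full palindrome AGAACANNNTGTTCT, found in 3 promoters, or the C/EBP motif TTGCGNAA, found in 0.80%. These matches describe letters in the windows and not binding.

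The 15 libraries used had 3504808 to 6139315 counts and 16555 to 18277 rows with a count. Sample 1 of each construct at 0h was left out, because those 3 libraries stood apart, with 11942 to 14355 such rows, so each 0h group is 1 library. Many rows did not hold what their names imply: among 568 rows of broadly expressed gene families, outside the stretch used here, 22.4% reached 20 CPM (counts scaled by the library total), with a median of 0.611 CPM. A stretch was kept only if it held 5 or more members of these families and at least 90% of them reached 20 CPM. A high rate in a kept stretch therefore follows from this rule and is no separate check of its names, and stretches that failed it count as outside. On chromosome 16, in a stretch of 611 of the 646 coding rows that holds both genes, 19 of 19 such members reached 20 CPM, with a median of 173 CPM, and coding genes of this stretch are called in-register genes. The row of Rcor2 lies outside it and held 201 to 265 CPM in the 10 hairpin libraries and 202 to 242 CPM in the 5 shScramble libraries, which overlap, so the knockdown could not be checked. None of the 11 osteoblast markers fixed for the check was in register, so the cell type could not be checked either. Adipoq, the adipocyte hormone adiponectin, averaged 0.199 CPM and Cldn5, an endothelial junction gene, had no counts, while Btla, a lymphocyte receptor, ranged from 18.7 to 67.2 CPM at 7d. At the later times no library was most like the other library of its group: over 316 in-register genes, 0 of the 12 libraries at 24h and 7d had the other library of its group as nearest neighbour, and at both 24h and 7d shRcor2-18 sample 1 was nearest to shScramble sample 1, shRcor2-20 sample 1 to shScramble sample 2, and shRcor2-18 sample 2 to shRcor2-20 sample 2. Whether sample or construct labels are crossed cannot be told from these files, so each value of hairpins minus shScramble below holds for the libraries as labelled.

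The rows beside the 2 genes were read as a check of their place. Around Cebpd, the DNA replication helicase gene Mcm4 averaged 359 CPM and the mitochondrial fission gene Dnm1l 329 CPM. Before Bcl6, the hormone gene Sst had 0.029 CPM, the olfactory receptor chaperone gene Rtp2 had no counts and the complement protease gene Masp1 averaged 325 CPM. After it, the focal adhesion gene Lpp averaged 735 CPM, but Trp63, a factor known from epithelia, averaged 345 CPM, which is high for a preosteoblast line. Cebpd and Bcl6 themselves averaged 149 and 120 CPM over the 15 libraries by library size. In the GENCODE M21 models, 562 of the 3746 exonic bases of Cebpd (15%) overlap exons of Spidr, a DNA repair gene on the opposite strand, and since the strand setting of the counting is not given in the sources used here, reads from those bases cannot be told apart. Spidr differed by a log2 fold change of 0.16 ± 0.18 (SE) at 24h against 0h and 0.13 ± 0.18 at 7d against 0h, neither past the threshold (edgeR adjusted p = 0.849 and 0.790). Bcl6 shares 21 of its 6700 exonic bases with a gene that has no row in the table.

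Cebpd was higher at 24h and at 7d than at 0h in all 3 constructs, by 2.19-fold to 3.09-fold, while Bcl6 was lower in both hairpin lines and, in shScramble, lower in sample 2 and higher in sample 1 than in the 0h library, which is a sample 2. Both genes are known as glucocorticoid-induced in other cells. Averaged over constructs, Cebpd was higher and Bcl6 lower at both later times than at 0h, and a response to the hormone was not tested. The values are from bulk RNA, in which fewer cells making a transcript and less transcript per cell cannot be told apart.

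At 0h, Cebpd had 73.7 CPM in shRcor2-18, 62.1 CPM in shRcor2-20 and 64.7 CPM in shScramble, each from 1 library and each after TMM scaling, as are all levels below unless stated. At 24h, its 2 libraries had 156 and 205 CPM in shRcor2-18, 160.0 and 153 CPM in shRcor2-20, and 174 and 183 CPM in shScramble. At 7d, they had 187 and 135 CPM in shRcor2-18, 154 and 141 CPM in shRcor2-20, and 193 and 207 CPM in shScramble. The highest 0h library was thus below the lowest library of either later time, while the libraries at 24h and 7d overlapped.

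Averaged over constructs, Cebpd stood at 66.8 ± 6.06 CPM at 0h (SD, n = 3), 172 ± 19.7 CPM at 24h (n = 6) and 169.5 ± 30.1 CPM at 7d (n = 6). The fitted log2 fold change was 1.36 at 24h against 0h, a ratio of 2.57, and 1.33 at 7d against 0h, a ratio of 2.52. Between the later times it was -0.03 for 7d against 24h. Per construct, the 24h against 0h value was 1.29 in shRcor2-18, 1.33 in shRcor2-20 and 1.46 in shScramble, and the 7d against 0h value was 1.13, 1.25 and 1.63 in the same constructs. Every construct therefore had a higher level at 24h that was still present at 7d, with shScramble at the top at 7d. Among the 373 in-register genes tested, Cebpd had the 9th highest log2 fold change at 24h against 0h and the 16th highest at 7d against 0h, where the medians over these genes were 0.00 and 0.06.

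At 0h, Bcl6 had 188 CPM in shRcor2-18, 200.1 CPM in shRcor2-20 and 126 CPM in shScramble. At 24h, its libraries had 142 and 86.0 CPM in shRcor2-18, 90.7 and 83.0 CPM in shRcor2-20, and 132 and 86.4 CPM in shScramble. At 7d, they had 122 and 100.2 CPM in shRcor2-18, 105 and 85.3 CPM in shRcor2-20, and 147 and 107 CPM in shScramble. Both hairpin lines were lower at each later time than in their own 0h library, whereas in shScramble sample 1 lay above and sample 2 below the 0h library at both times. Every 0h library in use is a sample 2, and sample 1 has no 0h library beside it. Within sample 2, the log2 ratio to 0h was -1.13 in shRcor2-18, -1.27 in shRcor2-20 and -0.54 in shScramble at 24h, and -0.91, -1.23 and -0.23 in the same constructs at 7d. Each of these ratios is 1 library over 1 library, and a pairing by sample number within a construct was not shown. The -0.23 of shScramble was smaller in size than the SD of log2 CPM within a group, 0.33, so a lower level in shScramble at 7d was not shown.

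Averaged over constructs, Bcl6 stood at 172 ± 39.9 CPM at 0h (SD, n = 3), 103 ± 26.4 CPM at 24h (n = 6) and 111 ± 21.2 CPM at 7d (n = 6). The fitted log2 fold change was -0.71 at 24h against 0h, a ratio of 0.611, and -0.61 at 7d against 0h, a ratio of 0.656, with ranges of libraries that overlapped in both. Per construct, the 24h against 0h value was -0.73 in shRcor2-18, -1.20 in shRcor2-20 and -0.20 in shScramble, and the 7d against 0h value was -0.76, -1.07 and 0.01 in the same constructs. With the sample number within construct as a block, the values over constructs were -0.94 at 24h and -0.83 at 7d. Without the shRcor2-20 library at 0h, the values over constructs were -0.47 at 24h and -0.38 at 7d, and without the shScramble library at 0h they were -0.97 and -0.92. With the 3 libraries that were left out added, the values were -1.29 and -1.17 for Bcl6, and 1.16 and 1.15 for Cebpd. In-register genes held 11.7 to 12.5% of the counts in those 3 libraries, against 7.0 to 7.3% in the 0h libraries in use. Bcl6 had the 20th lowest log2 fold change of the 373 genes at 24h against 0h and the 41st lowest at 7d against 0h.

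**Figure D1:**
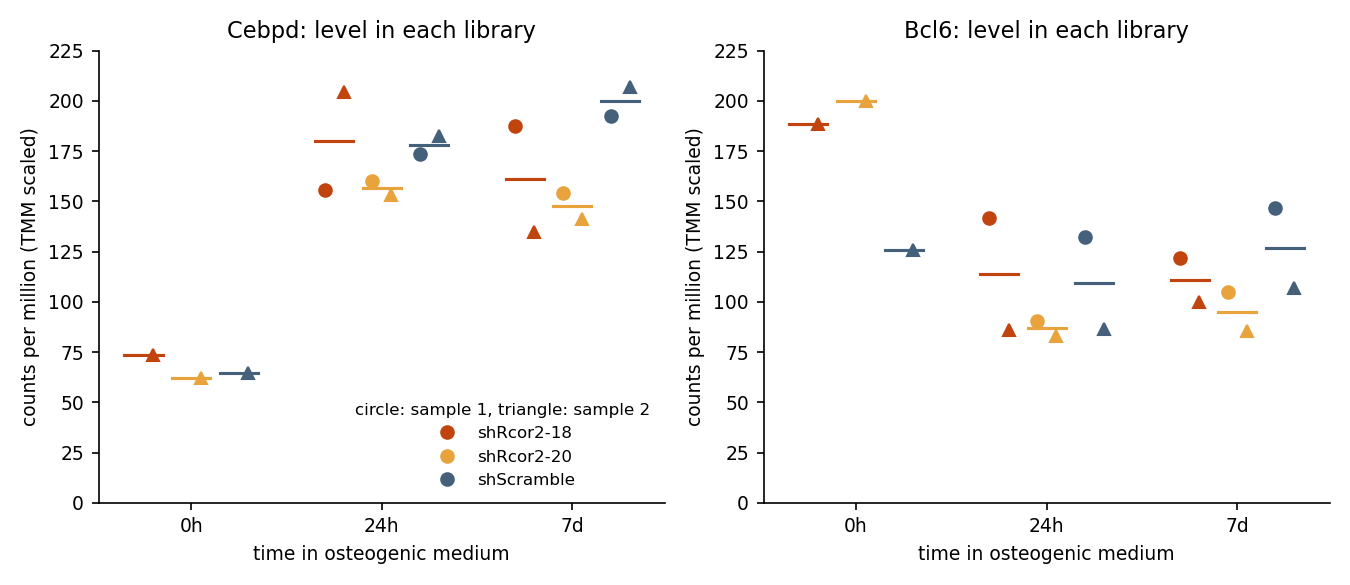
Level of Cebpd (left) and Bcl6 (right) in each of the 15 libraries, in TMM-scaled CPM on an axis from 0, by time, with shRcor2-18, shRcor2-20 and shScramble from left to right at each time; circles are sample 1, triangles sample 2 and bars the mean. Cebpd lay between 62.1 and 73.7 CPM at 0h and between 135 and 207 CPM later, while Bcl6 was highest in the 0h libraries of both hairpins, at 188 and 200.1 CPM.

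**Figure D2:**
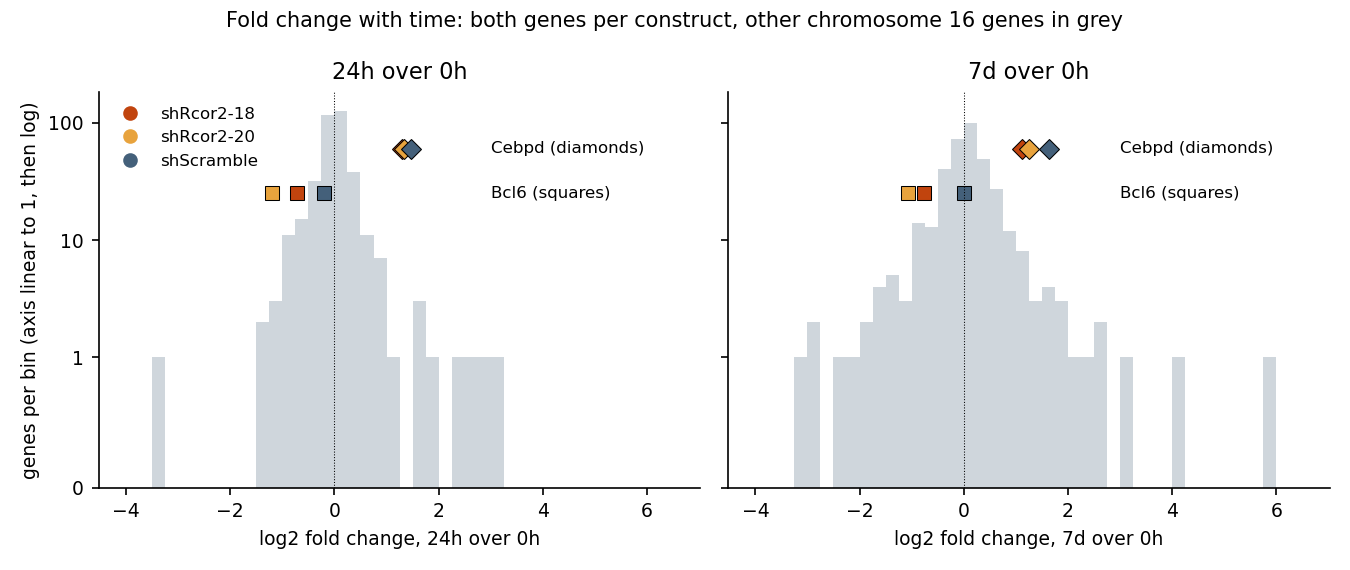
Log2 fold change at 24h over 0h (left) and 7d over 0h (right) of Cebpd (diamonds) and Bcl6 (squares) in each construct, drawn at an arbitrary height over the number of other in-register genes in each bin of log2 fold change, averaged over constructs (grey, vertical axis linear to 1 and then logarithmic). The Cebpd values lay between 1.13 and 1.63 and the Bcl6 values between -1.20 and 0.01.

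Ordered by mean level, the 9 groups put Cebpd at 199.9 ± 10.2 CPM in shScramble at 7d (SD, n = 2), then 180.3 ± 34.4 in shRcor2-18 at 24h, 178 ± 6.38 in shScramble at 24h, 161 ± 37.3 in shRcor2-18 at 7d, 157 ± 4.84 in shRcor2-20 at 24h and 148 ± 8.95 in shRcor2-20 at 7d, followed by the 3 libraries at 0h. Each of these later groups overlapped the next in its range, and a gap followed only below the last of them, down to 0h. For Bcl6 the order began with the 0h libraries of shRcor2-20 and shRcor2-18, above every other library. It went on with shScramble at 7d (127 ± 28.2 CPM) and ended with shRcor2-20 at 24h (86.8 ± 5.41 CPM), and each neighbouring pair among those 7 groups overlapped. Per kilobase of exon, Cebpd was below Bcl6 at 0h, at 17.8 ± 1.62 against 25.6 ± 5.95 CPM per kb (SD, n = 3). It was above Bcl6 at 24h, at 45.8 ± 5.26 against 15.4 ± 3.94 CPM per kb (n = 6), and at 7d, at 45.3 ± 8.04 against 16.6 ± 3.16 CPM per kb (n = 6).

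Replicates of a group differed more for Bcl6 than for Cebpd. The SD of log2 CPM within a group, pooled over the 6 groups of 2, was 0.33 for Bcl6 and 0.19 for Cebpd. Bcl6 was higher in sample 1 than in sample 2 in 6 of 6 groups, by 1.09-fold to 1.65-fold, and its highest libraries at 24h and at 7d were sample 1 of shRcor2-18 and sample 1 of shScramble, the pair that was also nearest neighbours over all in-register genes. Cebpd was higher in sample 1 in 3 of 6 groups, at ratios of 0.762 to 1.39. The part of this split between libraries in the Bcl6 values was not tested.

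The question of the hairpins is whether lowering Rcor2 changed either gene. Neither Cebpd nor Bcl6 differed between the hairpins and shScramble beyond the threshold at any time, nor averaged over times, in edgeR's quasi-likelihood test with Benjamini-Hochberg adjustment over 12930 rows. Of all rows, 0.155% passed at 0h, 0.0155% at 24h, 0.0387% at 7d and 0.00773% with the times averaged, and by hairpin 0.101% passed for shRcor2-18 and 0.0387% for shRcor2-20.

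Cebpd averaged 154 ± 23.5 CPM in the hairpin libraries (SD, n = 4) and 199.9 ± 10.2 CPM in shScramble (n = 2) at 7d, where all 4 hairpin libraries were below both shScramble libraries. Its log2 difference there was -0.37 ± 0.16 (SE; 95% interval -0.74 to -0.01), with an unadjusted p of 0.0434 and an adjusted p of 1.00 in edgeR, and so it failed the correction. At 24h the hairpin libraries averaged 168 ± 24.3 CPM and the shScramble libraries 178 ± 6.38 CPM, a log2 difference of -0.08 ± 0.16 (interval -0.45 to 0.28). At 0h the hairpin libraries had 67.9 ± 8.16 CPM (n = 2) against 64.7 CPM in the 1 shScramble library, a log2 difference of 0.07 ± 0.23 (interval -0.46 to 0.59). Over all times, shRcor2-18 differed from shScramble by -0.04 ± 0.12 and shRcor2-20 by -0.23 ± 0.12, with an edgeR adjusted p of 1.00 and 0.892.

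Bcl6 averaged 194 ± 8.25 CPM in the 2 hairpin libraries at 0h against 126 CPM in the 1 shScramble library. The log2 difference was 0.62 ± 0.37 (interval -0.23 to 1.48; edgeR adjusted p = 0.743), wide enough to hold both no difference and a difference of more than 1 on the log2 scale. At 24h the hairpin libraries averaged 100.3 ± 27.7 CPM and the shScramble libraries 109 ± 32.6 CPM, a difference of -0.14 ± 0.25 (interval -0.72 to 0.45). At 7d the hairpin libraries averaged 103 ± 15.02 CPM and the shScramble libraries 127 ± 28.2 CPM, a difference of -0.31 ± 0.25 (interval -0.89 to 0.28). Over all times, shRcor2-18 differed from shScramble by 0.15 ± 0.20 and shRcor2-20 by -0.03 ± 0.20.

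Whether the course in time differed between hairpins and shScramble was tested as an interaction, in which 0.0928% of all rows passed for 24h minus 0h and 0.0541% for 7d minus 24h. The hairpin difference of Bcl6 at 24h minus that at 0h was -0.76 ± 0.45 (interval -1.79 to 0.27; edgeR adjusted p = 0.925), so the courses of Bcl6 in the hairpin lines and in shScramble were not shown to differ. The same value for Cebpd was -0.15 ± 0.28 (adjusted p = 1.00). For 7d minus 24h, the interaction was -0.29 ± 0.23 for Cebpd and -0.17 ± 0.36 for Bcl6, both with an adjusted p of 1.00. In none of the 22 to 24 alternative settings did a hairpin contrast or interaction of either gene pass.

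**Figure D3:**
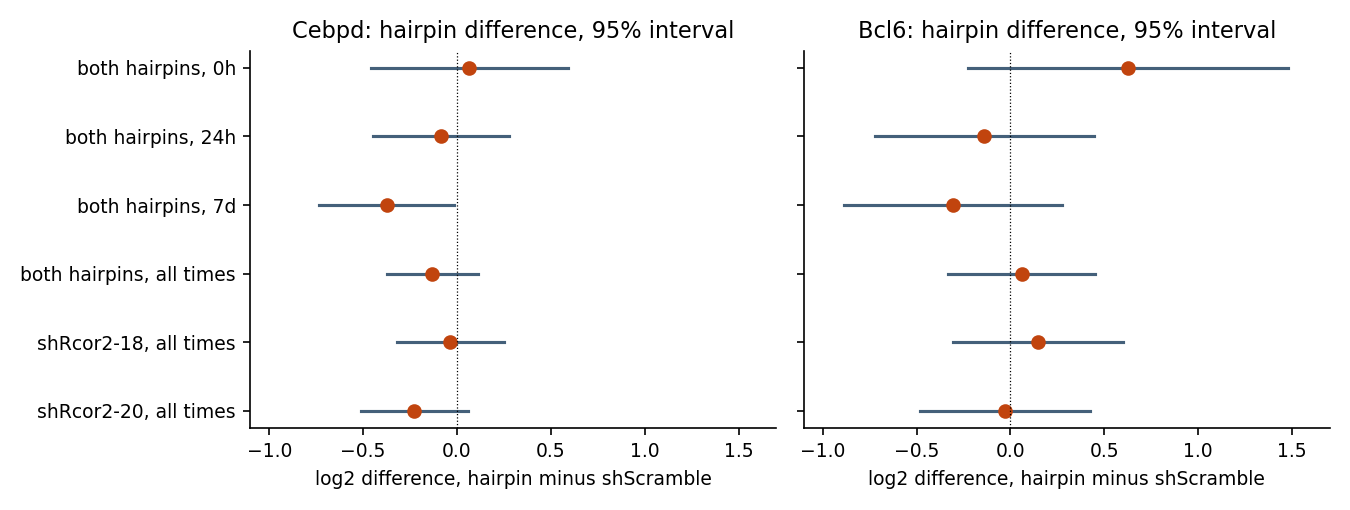
Log2 difference of the hairpins minus shScramble for Cebpd (left) and Bcl6 (right), at each time, over all times and for each hairpin alone; points are edgeR estimates and lines 95% intervals. Only the Cebpd interval at 7d, -0.74 to -0.01, leaves out 0, and no contrast passed the adjusted threshold of 0.05.

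The other genes of the same pathways were taken from 8 lists with 222 genes besides the pair, of which 25 were in register and 22 were tested. These lists were written with earlier results of these data known. The adjusted p-values of list genes between times, here and below, are therefore descriptive and not independent tests. Of the 22, 0 were higher and 1 was lower at 24h against 0h, where 1.34% of the 373 in-register genes were higher and 1.07% lower. At 7d against 0h, 2 were higher and 3 lower, where 6.17% of in-register genes were higher and 5.09% lower. At 7d against 24h, 1 was higher and 0 were lower, against 2.95% and 2.14%. Unadjusted, 6, 10 and 9 of the 22 were under 0.05 in these comparisons, beside 63, 134 and 98 of the 373. DESeq2 called 4, 6 and 4 of the 22, beside 30 of 362, 77 of 363 and 59 of 368 in-register genes with an adjusted p. The median log2 fold change of the 22 was -0.11 at 24h against 0h and -0.17 at 7d against 0h, beside 0.00 and 0.06 over all 373.

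Of 35 other genes known to be induced by glucocorticoids, 2 were tested. Apod, which encodes the lipid carrier apolipoprotein D, had 4.07, 9.03 and 10.5 CPM in the 3 libraries at 0h, 9.62 to 38.1 CPM at 24h (median 21.6) and 130.3 to 754 CPM at 7d (median 417). The 7d libraries all lay above the 24h ones, and the 24h libraries overlapped those at 0h. Apod rose at 7d against 0h by 5.80 ± 0.84 on the log2 scale (edgeR adjusted p = 0.00704) and at 7d against 24h by 4.20 ± 0.56 (0.00964), while the 24h against 0h value of 1.598 ± 0.71 did not pass (0.443). Without shRcor2-20 sample 1 or shScramble sample 1 at 24h, the 7d against 24h call was lost, at an adjusted p of 0.0546 and 0.0504. St6gal1, a sialyltransferase gene, stood at 10.3, 11.2 and 11.97 CPM at 0h, 16.7 to 64.2 CPM at 24h and 12.02 to 22.9 CPM at 7d, and its log2 fold change of 1.66 ± 0.43 at 24h against 0h did not pass (0.137).

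Of 27 genes known to be repressed by glucocorticoids, only Hes1 was in register. Hes1, a Notch-responsive repressor, had 22.7, 25.4 and 28.1 CPM at 0h, 0.987 to 3.73 CPM at 24h (median 2.39) and 1.84 to 5.22 CPM at 7d (median 3.24), with no overlap between 0h and either later time. It fell by 3.48 ± 0.37 on the log2 scale at 24h against 0h and fell by 2.92 ± 0.36 at 7d against 0h (edgeR adjusted p = 0.00334 and 0.00347), and passed in all 23 alternative settings of both. Against 0h, Hes1 was thus called at both later times and Apod at 7d alone. The Apod value at 24h against 0h, 1.60 ± 0.71, was not below the 1.36 of Cebpd, so these calls do not order the genes in time.

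The 4 tested of 26 genes of the glucocorticoid receptor, its chaperones and its coregulators did not pass at any time. The coactivator gene Crebbp had log2 fold changes of -0.13 ± 0.09 at 24h and 0.01 ± 0.09 at 7d against 0h. The nuclear receptor corepressor gene Nrip1 had -0.41 ± 0.17 and -0.40 ± 0.17, and the chaperone gene Dnajb11 had 0.00 ± 0.11 and -0.22 ± 0.11. None of the 24 genes of the Bcl6 corepressors and CoREST was in register.

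Of 30 genes of the C/EBP family, its partners and adipogenic factors, 2 were tested. Runx1, a factor of the osteoblast and blood lineages that can bind with C/EBP proteins, had 128, 132 and 148 CPM at 0h, 59.96 to 89.5 CPM at 24h and 31.5 to 62.2 CPM at 7d. It fell by 1.53 ± 0.22 on the log2 scale at 7d against 0h (edgeR adjusted p = 0.00684), while -0.83 ± 0.22 at 24h against 0h did not pass (0.147). That 24h value passed in 3 of 23 alternative settings: with DESeq2 (adjusted p = 0.0265), with in-register genes alone (0.0131) and with all 18 libraries (-1.45, adjusted p = 0.0360). Snai2, a repressor of epithelial genes, had -0.64 ± 0.28 and -0.79 ± 0.28 at 24h and 7d against 0h, neither past the threshold. Adipoq was too low to be tested.

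The list for JAK-STAT signalling, which acts through the sites that BCL6 can occupy, had 6 tested genes of 35. Socs1, the feedback inhibitor of JAK kinases, had 22.4, 25.2 and 30.7 CPM at 0h, 28.1 to 39.2 CPM at 24h and 39.4 to 47.2 CPM at 7d, with all 7d libraries above all others. It rose at 7d against 0h by 0.72 ± 0.14 (edgeR adjusted p = 0.0262). Nfkbiz, also in this list, encodes an inducible regulator of NF-kB target genes and not a JAK-STAT receptor or kinase. It had 27.6, 30.4 and 34.8 CPM at 0h and 11.4 to 20.7 CPM at 7d. Its level fell by 0.90 ± 0.18 on the log2 scale at 7d against 0h (edgeR adjusted p = 0.0235). These 2 calls were the least firm: Socs1 passed in 12 and Nfkbiz in 15 of 23 alternative settings, and with the sample number within construct as a block the adjusted p was 0.120 and 0.0935. With all 18 libraries, the Socs1 values turned to -0.59 at 24h and -0.12 at 7d against 0h. The interferon and interleukin receptor genes Ifnar1, Ifnar2, Ifngr2 and Il10rb did not pass, and the nearest was Il10rb at 7d against 0h (-0.56 ± 0.14, adjusted p = 0.0570).

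The 5 tested of 28 genes that BCL6 is known to repress did not pass at any time, with a median log2 fold change of -0.00 at 24h and -0.17 at 7d against 0h. Cd80, a costimulatory ligand of T cells, had 0.03 ± 0.13 and 0.32 ± 0.13. The interferon-induced genes Rtp4, Parp14, Parp9 and Dtx3l had values between -0.36 and 0.37 at 24h and between -0.53 and 0.00 at 7d. Of 27 genes of the BTB zinc finger family, the tested members Zbtb20 and Zbtb11 did not pass. In the hairpin contrasts, 0 of the 22 list genes passed in edgeR or in DESeq2, whether at 0h, 24h or 7d or averaged over them, and 0, 0, 0 and 1 of them had an unadjusted p under 0.05 in edgeR, beside 22, 2, 7 and 18 of the 373 in-register genes. That gene was Zbtb20, at 0.54 ± 0.23 for the hairpins minus shScramble over all times.

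**Figure D4:**
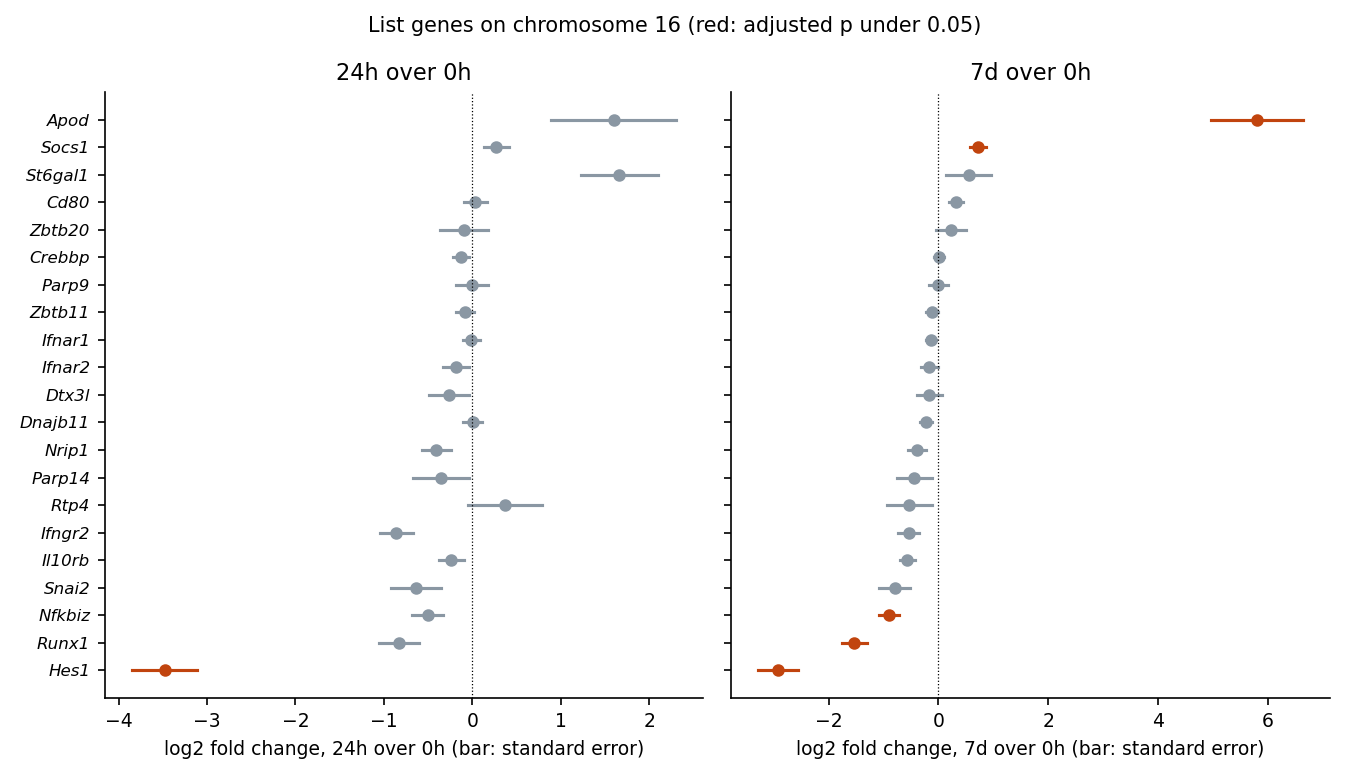
Log2 fold change of the tested list genes named in the text at 24h over 0h (left) and 7d over 0h (right), averaged over constructs, with standard errors as bars, ordered by the 7d value; red marks an edgeR adjusted p under 0.05. At 24h Hes1 is marked, at -3.48, and at 7d Apod (5.80), Socs1 (0.72), Nfkbiz (-0.90), Runx1 (-1.53) and Hes1 (-2.92).

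Likeness to each gene was measured as Pearson's r of log2(CPM + 1) with the other 315 in-register genes averaging at least 20 CPM. Over the 15 libraries, which fall into 0h and later ones, the genes most like Cebpd were Adamts1 (r = 0.909), N6amt1 (0.860), Smim11 (0.858), Vasn (0.852) and Cblb (0.846). Spearman's rho was lower, 0.50, 0.668, 0.65, 0.593 and 0.268 for these genes in the same order. The 3 libraries at 0h lie apart from the other 12 in both Cebpd and Adamts1. Adamts1, a secreted metalloprotease gene, averaged 404 ± 159 CPM at 0h (SD, n = 3), 2432 ± 512 CPM at 24h (n = 6) and 3416 ± 1025 CPM at 7d (n = 6), given as a description, since likeness to Cebpd over these libraries chose it. The least like Cebpd were Tnk2 (-0.812), Adamts5 (-0.810) and Ccdc80 (-0.806). For Bcl6 the most alike were Ubald1 (0.793), Lrrc58 (0.708), Cryzl1 (0.652), Mgrn1 (0.641) and P3h2 (0.640), and the least alike were Mrps6 (-0.894), Rwdd2b (-0.801) and Slc5a3 (-0.727). Between Cebpd and Bcl6, r was -0.598 and rho -0.214.

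Within groups, over deviations from the group mean in the 12 libraries at 24h and 7d (6 independent differences), the genes most like Cebpd were Cct8 (0.911), Wdr53 (0.902), Socs1 (0.865), Camk2n2 (0.782) and Smim11 (0.757). Those most like Bcl6 were Trp63 (0.947), Abi3bp (0.922), Adcy9 (0.915), Masp1 (0.906) and St6gal1 (0.901), of which Trp63 and Masp1 are among the 4 coding rows on either side of Bcl6. Trp63 had its highest levels in the same libraries as Bcl6, with 513 CPM in shRcor2-18 sample 1 and 446 CPM in shScramble sample 1 at 24h, against 242 to 271 CPM in the other 4 at that time. Apod was low in those libraries, with 9.62 CPM in shRcor2-18 sample 1 and 11.04 CPM in shScramble sample 1. Cebpd did not share this pattern: the same pair had 156 and 174 CPM, inside the range of the other 4 libraries at 24h, 153 to 205 CPM.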

How the data were processed

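RNA-seq of MC3T3-E1 cells was analysed from 1 table of raw read counts per gene, as deposited by the authors, with 18 libraries and 40620 rows. The submitters' processing notes name FastQC, TopHat2 2.0.9, DESeq, DESeq2 and the build mm9, and the reads were 100 bp long per the labels. How reads were counted, on which strand and with which annotation is not given in the sources used here. Row identifiers are of the GRCm38 period, of which 97.4% were found in GENCODE M21, so no gene coordinates are printed.

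Groups came from the sample titles. The members and the lists were chosen with earlier results of these data known. The edgeR 4.0.16 fit (R 4.3.3) used 15 libraries, 9 group means, filterByExpr, TMM and robust quasi-likelihood tests on 12930 rows, with 6 residual degrees of freedom and a threshold of 0.05 on adjusted p. Standard errors are the log2 fold change over the square root of F. The fit was also run on simulated counts, drawn independently with the same spread for all genes and no difference by time or sample number. That run covers the working of the fit and not the p-values of these libraries. The in-register stretch was sought from the start of each chromosome, scoring coding genes as detected from 20 CPM, and chromosome 16 was the only one on which at least 90% of 5 or more held-out family members were detected. Named were the pair, tested list genes (the values of 1 are not reported here), the genes most and least like each member, and the 4 coding rows on either side. Promoters came from RefSeq (GRCm38.p6).

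Sample numbers were checked for pairing on the 316 in-register genes: deviations of same-numbered libraries at 24h and 7d correlated by 0.563 in shRcor2-18, 0.499 in shRcor2-20 and 0.484 in shScramble, and by -0.163 to 0.625 across constructs. Over all 5044 rows from 20 CPM the values within a construct were 0.111, 0.03 and -0.01. The range across constructs takes in every value within a construct, so a pairing particular to a construct was not shown. The main fit had no block for sample number, and all its p-values ignore such pairing. Blocks by sample number were run only as alternatives, as a hint from the data. Alternatives were other scalings, DESeq2 1.42.0, filters, libraries and replicate blocks.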

Additional observations from a re-analysis of the deposited data

Results flagged for a closer look

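Both genes had counts in the 3 libraries left out of every comparison, sample 1 of each construct at 0h, and these values, in CPM by library size, lie outside the measurements reported above. Cebpd had 64.2 CPM in shRcor2-18, 127.9 CPM in shRcor2-20 and 59.9 CPM in shScramble, so that the shRcor2-20 library stood well above the 61.6 to 72.7 CPM of the 0h libraries in use. Bcl6 had 363 CPM in shRcor2-18, 233 CPM in shRcor2-20 and 364 CPM in shScramble, each above the 130.2 to 198 CPM of the 0h libraries in use. In-register genes held 11.7 to 12.5% of the counts in these 3 libraries, against 7.0 to 7.3% in the 0h libraries in use. Spidr too was higher in them, at 165 to 224 CPM against 99.9 to 127 CPM. The part of this larger share in the values of Cebpd and Bcl6 was not tested. In 4 tests of the 6 libraries at 24h and at 7d, no library of either gene lay apart from the rest, with a gap of at most 0.427 of the range against a critical value of 0.625.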

How the results depend on the processing

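The hairpin contrasts and interactions of Cebpd and Bcl6 passed the threshold in none of the alternatives run. Hairpin values and interactions that changed sign lay between -0.23 and 0.20, and some were larger in size than the main value. The main value of Bcl6 over all times, for example, was 0.06. Cebpd reached 0.012 for shRcor2-18 minus shScramble with in-register genes alone, and with all 18 libraries 0.017 for both hairpins over all times and 0.050 for shRcor2-20. Bcl6 reached -0.10 for both hairpins over all times with all 18 libraries. With the 12 libraries at 24h and 7d, an alternative added after the data were examined like those of the list genes, it reached -0.23 for both hairpins and -0.073 for shRcor2-18. In the descriptions between times with all 18 libraries, Cebpd was 1.16 at 24h against 0h, and Bcl6 was -1.29 at 24h and -1.17 at 7d against 0h. Socs1 turned to -0.59 and -0.12 in the same comparisons. In-register genes held a larger share of the counts in the added libraries, and the part of that share in these values was not tested.

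The sample number within construct, taken as the replicate block, gave 0.094 for Bcl6 in shRcor2-20 minus shScramble. With this block, rows called for the hairpins went to 0 (0h), 1 (24h), 0 (7d) and 0 with the times together, to 56 (24h against 0h), 432 (7d against 0h) and 169 (7d against 24h) between times, and to 3 list genes at 7d against 0h. The sample number as 1 block gave 12 rows for the hairpins at 0h. The blocks changed no other count by over 1.5 times.

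Counts of rows called were 20, 2, 5 and 1 for the hairpins (0h, 24h, 7d, the times together), and 240, 745 and 302 for 24h against 0h, 7d against 0h and 7d against 24h, with 1, 5 and 1 list genes. In the same order, DESeq2 called 146, 29, 21 and 109, then 578, 1406 and 1076 rows, with 4 list genes at 24h against 0h and 4 at 7d against 24h. In-register genes alone gave 0, 0, 0 and 0, then 21, 87 and 59, with 4, 9 and 5 list genes, from 373 genes tested. Without a filter on low counts the hairpin counts were 41 at 0h, 4 at 24h and 20 over all times, with 2 list genes at 24h and 3 at 7d against 0h. All 18 libraries gave 0, 0, 0 and 0 for the hairpins, 38 rows at 7d against 24h, and 3 and 8 list genes at 24h and 7d against 0h. Library size scaling gave 8 and the 12 libraries 6 rows for the hairpins over all times. The cause of the other differences between these settings was not tested.

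Leaving out each library in turn moved the hairpin value of Cebpd between -0.056 and 0.19 at 0h, -0.19 and 0.0068 at 24h, -0.50 and -0.26 at 7d and -0.23 and -0.09 over the times together, and for shRcor2-18 between -0.15 and 0.038 and for shRcor2-20 between -0.31 and -0.21. Bcl6 moved between 0.58 and 0.67, -0.43 and 0.20, -0.52 and -0.06, and -0.22 and 0.17 at those times, and by hairpin between -0.070 and 0.26 and between -0.38 and 0.087. The interactions moved between -0.27 and -0.03 and between -0.42 and -0.18 for Cebpd, and between -1.05 and -0.43 and between -0.51 and 0.12 for Bcl6. Between times, Cebpd stayed between 1.29 and 1.42 at 24h and 1.19 and 1.44 at 7d against 0h, and between -0.11 and 0.047 at 7d against 24h. Bcl6 ranged from -0.97 to -0.47, from -0.92 to -0.38 and from -0.0013 to 0.24. Rows called for the hairpins ranged over 9 to 24, 2 to 12, 5 to 15 and 0 to 14. Between times they ranged over 126 to 231 and 310 to 762, both lowest without the shScramble library at 0h, and 120 to 307, lowest without shRcor2-20 sample 1 at 24h, with 1 to 2, 3 to 7 and 0 to 2 list genes. With 1 library per construct at 0h, a 0h library left out leaves that construct without 0h, so its contrasts rest on the other constructs. The median of all rows stayed within 0.1 of 0 under all 3 scalings.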
